A study of Mus musculus with 6 samples.

Results

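The genes described here are 39 genes of endothelial cells and of the blood-brain barrier. They were chosen by name from a list, with earlier results of these data known. Of these, 38 were measured by a probe set of their own, among 19938 genes tested on the array. The exception was Ly6c1, a surface antigen gene of brain capillaries, whose 2 probe sets are shared with other genes and were not used. The mice were embryos of day 14.5, and neocortex RNA of each was run on its own Affymetrix Mouse Gene ST array. The 3 controls were wild type (Bcl11a+/+). The 3 mutants, labelled as Bcl11a knockouts, were Bcl11aΔflox/Δflox, that is, both copies carried a floxed allele after recombination. Which Cre was used, where it acted, and the mouse strain are not stated in the sources used here. All values are on the log2 scale, where 1 unit is a doubling, and a difference is mutant minus control.

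Endothelial cells line blood vessels. In the developing cortex, vessels grow in from a plexus on the brain surface, under VEGF made by neural progenitors and Wnt ligands that act on the endothelial cells. These signals also bring on the blood-brain barrier, in which tight junctions seal the gaps between cells and transporters select what crosses. Cortical vessels carry pericytes around them and lie under the meninges, the fibroblast-rich coverings of the brain, and a dissected neocortex can hold all of these. In tissue RNA, fewer endothelial cells and less RNA per endothelial cell cannot be told apart.

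No endothelial or barrier gene passed the test between mutants and controls. Of the 38 genes, 0 passed at an adjusted p under 0.05 in limma, where 0.286% of all genes tested did, 0.246% higher and 0.0401% lower in the mutants. At an unadjusted p under 0.05 there were 6, all higher in the mutants, namely Tek, Angpt1, Slco1c1, Cd34, Ets1 and Abcb1a, where 6.05% of all genes reached that level, 4.53% higher and 1.52% lower. Their limma adjusted p lay between 0.539 for Angpt1 and 0.823 for Abcb1a. Differences were small and mostly of one sign. They were positive for 36 of 38 genes, against 60.3% of all genes, with a median of 0.08 against 0.02. The 95% interval of the difference lay within 1.5-fold in either direction for all 38 genes, each interval taken singly, with the highest bound at 0.578 for Tek on the log2 scale. Without mutant replicate 1 this held for 37 genes, and the interval of Slco1c1 reached 0.644.

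The positive sign came largely with 1 embryo. Mutant replicate 1 had the highest value of the 6 arrays for 28 of the 38 genes, against 27.6% of all genes. It lay above all 3 controls for 29 of them, against 34.8% of all genes. Mutant replicate 2 lay above all 3 controls for 6 genes (15.8%, against 19.3% of all genes) and mutant replicate 3 for 12 (31.6%, against 29.4%), both near the share of all genes. Both of these mutants lay inside the range of the controls for 23 of the 38 genes, against 40.4% of all genes. Without mutant replicate 1, 22 of 38 differences were positive, against 57.8% of all genes, with a median of 0.01 for the 38 genes and for all genes. In that fit 0 of the 38 genes passed, where 0.125% of all genes did, and 2 had an unadjusted p under 0.05, namely Slco1c1 and Angpt1, where 4.68% of all genes did. At the low end, control replicate 1 had the lowest value for 23 genes, against 21.5% of all genes. Without both of these arrays, a choice made after the data were seen, 15 differences were positive (39.5%, against 59.2% of all genes) and the median was -0.015, against 0.02 for all genes.

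**Figure D1:**
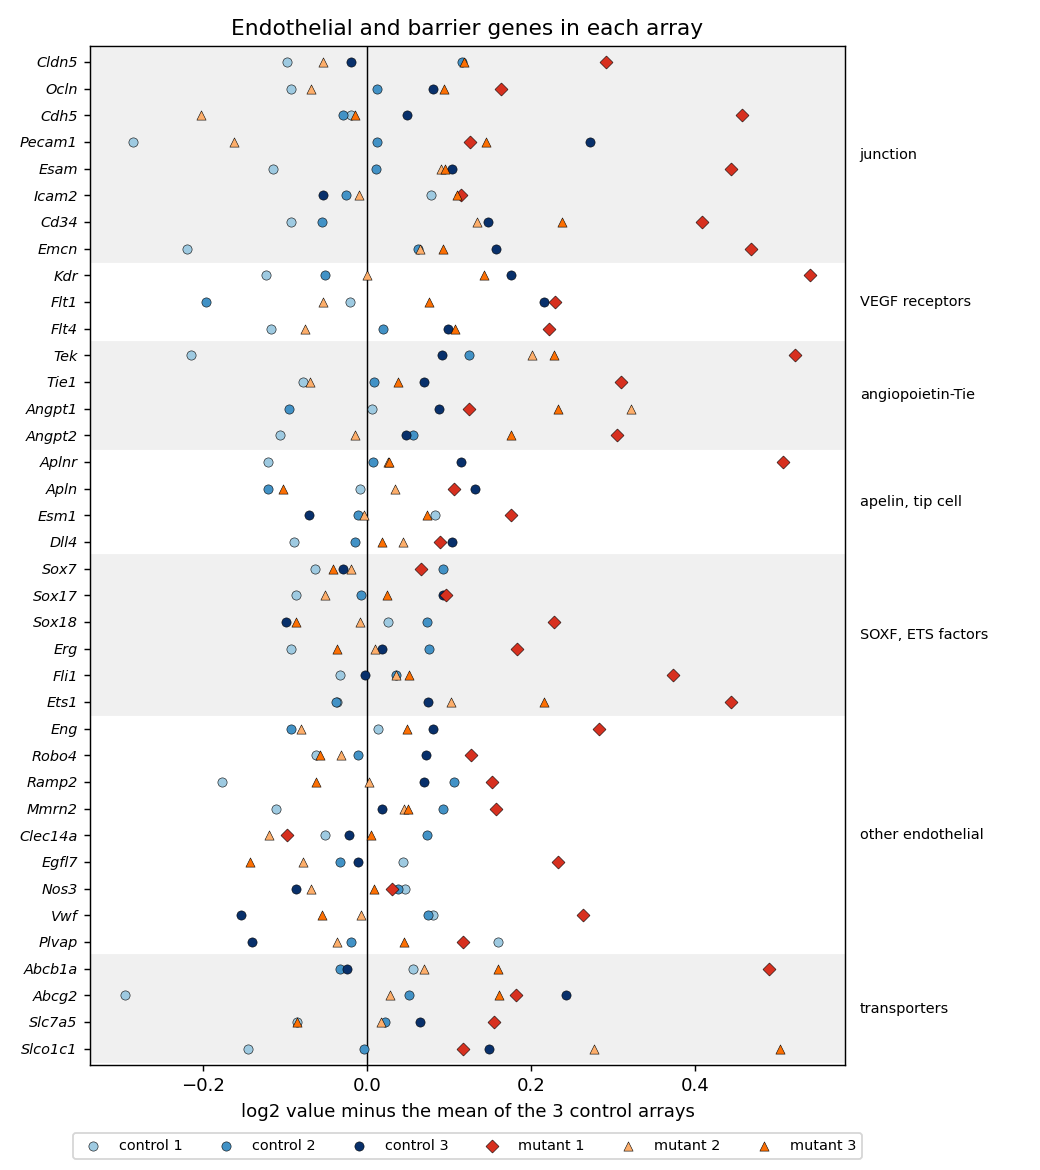
Values of the 38 endothelial and barrier genes in each array, as the log2 value minus the mean of the 3 controls, with 1 point for each embryo and genes grouped by role. Mutant replicate 1 (red diamonds) is the rightmost point for 28 genes, while mutant replicates 2 and 3 lie inside the range of the controls for 23 genes.

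**Figure D2:**
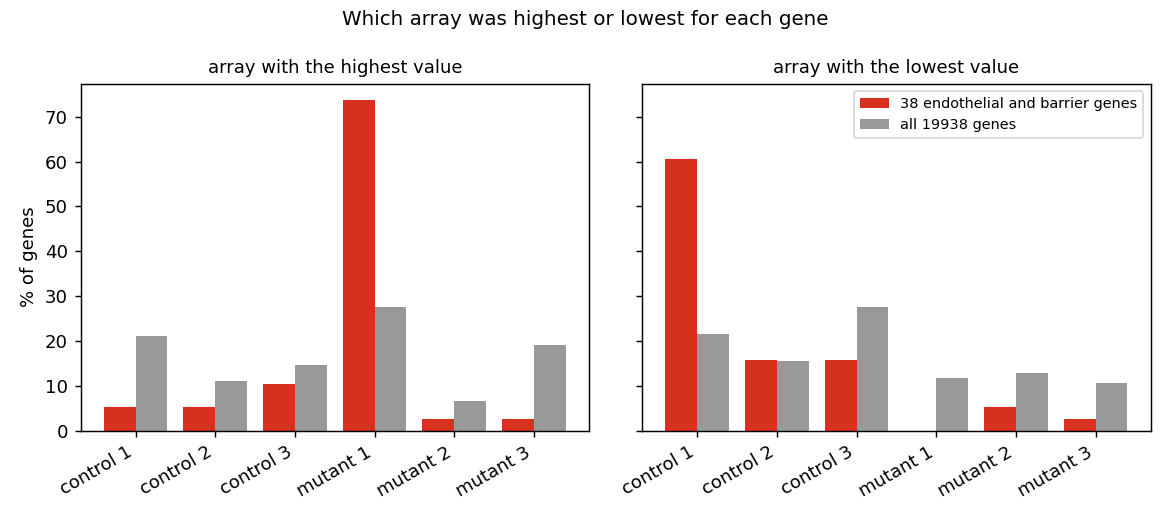
Share of genes, in percent, for which each array had the highest value (left) or the lowest value (right), for the 38 endothelial and barrier genes and for all genes tested. Mutant replicate 1 was highest for 73.7% of the 38 genes and 27.6% of all genes, and control replicate 1 was lowest for 60.5% and 21.5%.

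Bcl11a was lower in every mutant than in any control, though its signal remained, and neocortex markers were high in every array. Bcl11a, a zinc finger transcription factor gene, had values of 12.20, 12.30 and 12.26 among controls, against 11.41, 11.49 and 11.34 among mutants, and fell by 0.84 (limma adjusted p = 0.00201). The 10 neocortex markers measured, among them Tbr1, Pax6 and Neurod6, had a mean between 11.47 and 11.59 in every array. The endothelial genes Pecam1, Cdh5, Cldn5, Kdr, Tie1 and Tek lay above the level of 6.31 that 95% of 1190 olfactory and vomeronasal receptor genes did not exceed. Of the 38 genes, 34 had a mean above that level. Ocln, Esm1, Angpt1 and Clec14a did not, and differences of such dim genes are understated on this array.

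Junction and adhesion genes were highest in mutant replicate 1 for 7 of 8 genes, and none passed. Cdh5, which encodes VE-cadherin of the endothelial adherens junction, had values of 9.34, 9.33 and 9.40 among controls, against 9.81, 9.15 and 9.34 among mutants. Mutant replicate 1 was thus above every control and mutant replicate 2 below every control. The difference was 0.08 ± 0.145 (SE) with all arrays and -0.11 ± 0.08 without mutant replicate 1 (limma adjusted p = 0.9995 and 0.9997). Cldn5, the main claudin of the barrier's tight junctions, had values of 9.41, 9.62 and 9.49 among controls, against 9.80, 9.45 and 9.63 among mutants. Its difference of 0.12 ± 0.10 (SE) had a 95% interval of -0.10 to 0.34, and the groups overlapped. Ocln, the tight junction protein occludin, differed by 0.06.

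Cd34, a sialomucin of vessels and blood progenitors, had the largest difference of this group. It had values of 9.64, 9.67 and 9.88 among controls, against 10.14, 9.86 and 9.97 among mutants, so that the lowest mutant lay just below the highest control. The difference was 0.26 ± 0.09 (SE, limma adjusted p = 0.606) and 0.19 without mutant replicate 1. Esam, an endothelial adhesion molecule, and Emcn, the sialomucin endomucin, both differed by 0.21, and by 0.09 and 0.08 without that array. Pecam1, the platelet-endothelial adhesion molecule CD31, went another way. It ranged from 7.92 to 8.48 among the controls and from 8.04 to 8.35 among the mutants, with its highest value in control replicate 3, and it differed by 0.04. Icam2, a ligand of leukocyte integrins, differed by 0.07. Of the 8 genes of this group, 8 differences were positive with all arrays and 6 without mutant replicate 1.

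VEGF receptor genes did not pass. Kdr, which encodes VEGFR2, the main signalling receptor of VEGF in vessels, had values of 8.41, 8.48 and 8.71 among controls, against 9.07, 8.53 and 8.67 among mutants. Mutant replicate 1 stood alone at the top, and the other mutants lay inside the range of the controls. The difference was 0.23 ± 0.14 (SE, limma adjusted p = 0.9995), and 0.07 ± 0.10 without that array. Flt1, which encodes VEGFR1, a receptor that also acts as a decoy for VEGF, differed by 0.08, and by 0.01 without mutant replicate 1. Flt4, which encodes VEGFR3, the receptor of VEGF-C on sprouting and lymphatic vessels, likewise differed by 0.08, and by 0.02 without that array.

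The angiopoietin system held 2 of the 5 genes whose groups did not overlap. These 5 of the 38 genes, all higher in the mutants, were Tek, Angpt1, Ets1, Abcb1a and Fli1. Of all genes, 10.5% did not overlap, 7.69% higher and 2.85% lower. Each had an exact two-sided permutation p of 0.1, and a lower p is out of reach with 3 arrays a group. Tek, which encodes the angiopoietin receptor TIE2, had values of 7.20, 7.54 and 7.50 among controls, against 7.93, 7.61 and 7.64 among mutants. Its difference of 0.32 ± 0.11 (SE, limma adjusted p = 0.626) was the largest of the 38 genes, and was 0.21 without mutant replicate 1. Control replicate 1 was its lowest array.

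Angpt1, the activating ligand of TIE2 that pericytes and other cells around vessels make, did not follow mutant replicate 1. It had values of 5.49, 5.39 and 5.58 among controls, against 5.61, 5.81 and 5.72 among mutants, so mutant replicate 1 was the lowest mutant. The difference was 0.23 ± 0.08 (SE, limma adjusted p = 0.539), and 0.28 without that array (limma adjusted p = 0.563). Angpt2, the ligand that endothelial cells release and that can block TIE2, differed by 0.16, and by 0.08 without mutant replicate 1. Tie1, the orphan receptor that pairs with TIE2, had values of 8.04, 8.13 and 8.19 among controls, against 8.43, 8.05 and 8.16 among mutants. Its difference of 0.09 became -0.02 without mutant replicate 1.

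**Figure D3:**
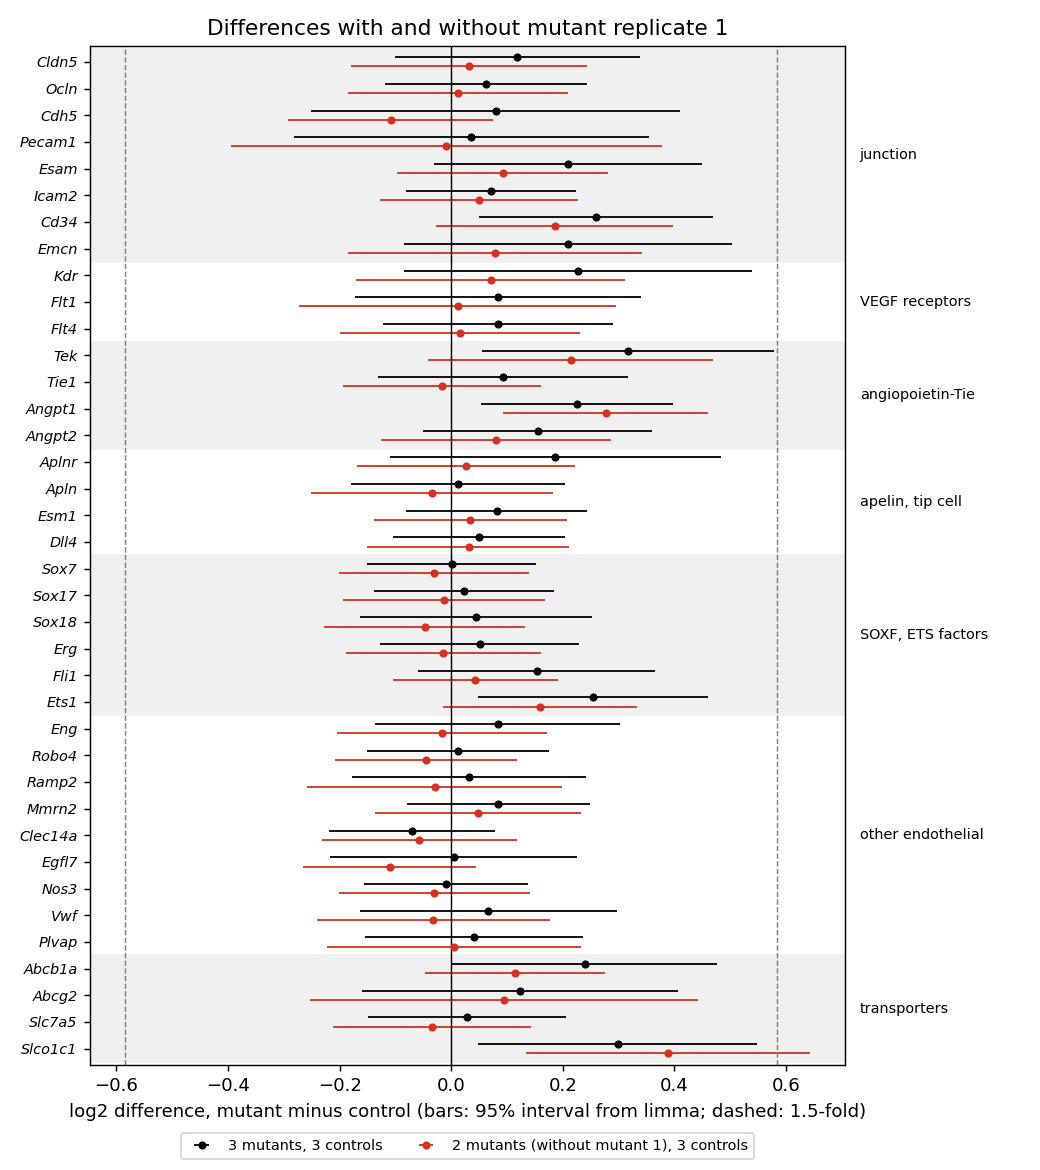
Log2 difference, mutant minus control, of each of the 38 genes with its 95% interval from limma, with all 6 arrays (black) and without mutant replicate 1 (red). All 38 black intervals and 37 of the red ones lie inside the dashed lines at 1.5-fold. Above 0 lie 22 of the red points, against 36 of the black ones.

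Tip cells are the leading cells of vessel sprouts. Of the apelin and tip cell genes, Aplnr moved most with mutant replicate 1. Aplnr, the apelin receptor gene, had values of 8.40, 8.52 and 8.63 among controls, against 9.02, 8.54 and 8.54 among mutants. The difference was 0.19 with all arrays and 0.03 without mutant replicate 1. Apln, which encodes its ligand, and Dll4, the Notch ligand that restrains further sprouting, had their highest value in control replicate 3 and differed by 0.01 and 0.05. Esm1, a secreted proteoglycan of tip cells, differed by 0.08.

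Among transcription factor genes, Ets1 and Fli1, of the ETS family, had the largest differences. Ets1 had values of 7.85, 7.85 and 7.96 among controls, against 8.33, 7.99 and 8.10 among mutants, with all 3 mutants above all controls. The difference was 0.25 ± 0.09 (SE, limma adjusted p = 0.617), and 0.16 without mutant replicate 1. Fli1 had values of 7.85, 7.92 and 7.88 among controls, against 8.26, 7.92 and 7.93 among mutants, so that mutant replicates 2 and 3 barely cleared the highest control. Its difference of 0.15 was 0.04 without mutant replicate 1, and that of Erg, an ETS factor that keeps endothelial junctions stable, went from 0.05 to -0.01. Sox7, Sox17 and Sox18, the SOXF factors of arterial and lymphatic fate, differed by 0.0016, 0.02 and 0.04, and by -0.03, -0.01 and -0.05 without that array. The difference between the ETS and the SOXF genes was not tested.

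For the 9 other endothelial surface and secreted proteins the median difference was 0.03, and -0.03 without mutant replicate 1. Egfl7, a secreted factor of the vessel wall, had values of 8.32, 8.25 and 8.27 among controls, against 8.51, 8.20 and 8.14 among mutants. The mutants lay on both sides of the controls, and the difference of 0.0044 became -0.11 without mutant replicate 1. Eng, the TGF-beta coreceptor endoglin, and Vwf, the von Willebrand clotting factor, differed by 0.08 and 0.07, and by -0.02 and -0.03 without that array. Mmrn2, an extracellular ligand of Clec14a, differed by 0.08, Ramp2, a partner of the adrenomedullin receptor, by 0.03, and Robo4, a receptor that steadies vessels, by 0.01. Clec14a, a lectin of vessel sprouts, and Nos3, the endothelial nitric oxide synthase, were the 2 negative ones, at -0.07 and -0.01. Plvap, the diaphragm protein of leaky vessels that brain vessels lose as the barrier forms, ranged from 7.34 to 7.64 among the controls and from 7.44 to 7.59 among the mutants, and differed by 0.04.

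Of the barrier transporter genes, Abcb1a and Slc7a5 were highest in mutant replicate 1, and Slco1c1 and Abcg2 were not. Abcb1a, the P-glycoprotein efflux pump, had values of 6.75, 6.66 and 6.67 among controls, against 7.18, 6.76 and 6.85 among mutants, with no overlap. The difference was 0.24 ± 0.10 (SE, limma adjusted p = 0.823), and 0.11 without mutant replicate 1. Slco1c1, the thyroxine transporter OATP14 of brain vessels, had values of 6.89, 7.03 and 7.18 among controls, against 7.15, 7.31 and 7.54 among mutants. Its lowest mutant was mutant replicate 1, which lay below control replicate 3. The difference was 0.30 ± 0.11 (SE, limma adjusted p = 0.636), and 0.39 ± 0.11 without that array (limma adjusted p = 0.552). Abcg2, the efflux pump of many drugs and of urate, differed by 0.12 with a range of 0.538 among the controls alone. Slc7a5, a carrier of large neutral amino acids that neural progenitors also use, differed by 0.03.

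Promoters of the receptor genes Tek, Tie1 and Kdr and of the transporter gene Abcb1a are shown because Ets1, Fli1 and Erg encode ETS factors, which bind DNA around the letters GGAA. Each sequence is the 250 bases before the gene's start in the RefSeq promoter table of build GRCm38.p6, and capitals mark GGAA on either strand, read as TTCC on the other.
Tek, chr4:94739039-94739288, strand +: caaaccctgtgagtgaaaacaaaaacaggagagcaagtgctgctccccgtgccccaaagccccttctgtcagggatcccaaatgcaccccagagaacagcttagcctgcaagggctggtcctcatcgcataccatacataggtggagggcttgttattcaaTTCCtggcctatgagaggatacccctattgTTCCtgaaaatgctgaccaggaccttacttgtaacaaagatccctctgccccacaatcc
Tie1, chr4:118489850-118490099, strand -: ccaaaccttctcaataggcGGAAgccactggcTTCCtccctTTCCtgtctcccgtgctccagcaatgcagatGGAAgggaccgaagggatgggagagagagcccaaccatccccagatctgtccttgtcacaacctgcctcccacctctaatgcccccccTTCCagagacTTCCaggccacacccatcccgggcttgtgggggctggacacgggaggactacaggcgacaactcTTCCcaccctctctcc
Kdr, chr5:75978456-75978705, strand -: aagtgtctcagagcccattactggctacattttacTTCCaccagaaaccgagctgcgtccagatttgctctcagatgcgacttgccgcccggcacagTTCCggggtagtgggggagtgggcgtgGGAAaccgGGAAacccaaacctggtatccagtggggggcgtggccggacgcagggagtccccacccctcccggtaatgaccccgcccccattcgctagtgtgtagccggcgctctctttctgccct
Abcb1a, chr5:8566841-8567090, strand +: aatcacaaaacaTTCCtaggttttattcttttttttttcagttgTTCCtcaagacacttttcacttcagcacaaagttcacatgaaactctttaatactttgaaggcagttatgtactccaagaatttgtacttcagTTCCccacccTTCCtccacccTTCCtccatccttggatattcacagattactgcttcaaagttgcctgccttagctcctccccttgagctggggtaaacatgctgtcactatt
The letters occur 2 times before Tek, 7 times before Tie1, 4 times before Kdr and 5 times before Abcb1a. The table held 29 such windows for 21 of the 39 genes, some of which overlap. GGAA was in 93.1% of these windows and in 93.4% of all 32851 windows of the table, so its presence sets no gene apart. Longer forms, which contain GGAA, were searched on both strands as well. AGGAAG was in 55.2% of the windows of these genes and 29.5% of all windows, GGAAGT in 34.5% and 19.7%, and CGGAAG in 3.45% and 13.6%. Matches of letters are not binding sites.

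The values of the 38 genes mostly varied together across the embryos, with mutant replicate 1 at the high end. Over the 6 arrays, the Pearson correlation of each gene with the mean of the other 37 had a median of 0.806. Genotypes are pooled in this description. It was highest for Kdr (0.983), Esam (0.981), Aplnr (0.971) and Tie1 (0.968). It was lowest for Clec14a (-0.30), Nos3 (0.038), Plvap (0.081), Angpt1 (0.171) and Slco1c1 (0.247). Of 19745 genes outside all lists, those most like the mean of the 38 over the 6 arrays were Adamts1 (0.997), Il13ra1 (0.995), Bcl6 (0.994), Atp23 (0.993) and Mavs (0.991). A search of so many genes over 6 arrays finds high values by its size alone.

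Other genes of vessels were set beside these from further lists. Of 28 further endothelial genes, 1 of them also among the 38, 1 rose and none fell. This was Palmd, which encodes palmdelphin and is not limited to vessels, with 10.70, 10.86 and 10.76 among controls, against 11.32, 11.30 and 11.16 among mutants. It rose by 0.48 (limma adjusted p = 0.0400), and without mutant replicate 1 its difference of 0.45 missed the threshold (limma adjusted p = 0.197). Palmd also missed the threshold when any other single array was left out. At an unadjusted p under 0.05, 5 of the 28 genes were higher in the mutants, where 4.53% of all genes were, and none was lower. Positive differences were found for 23 of the 28 genes (82.1%, against 60.3% of all genes). Without mutant replicate 1 there were 18 (64.3%, against 57.8% of all genes), and the median went from 0.08 to 0.04. The largest differences that did not pass were those of Lyve1, a hyaluronan receptor of lymphatic endothelium and of macrophages, at 0.45, and Lyl1, a blood and endothelial transcription factor, at 0.29. Lyve1 was 7.19 in mutant replicate 1 and between 5.76 and 6.15 in the other arrays.

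Of 7 VEGF ligands and coreceptors, Nrp2, a coreceptor of VEGF-C and of semaphorins that neurons also make, was the only one that passed. It rose by 0.59 (limma adjusted p = 0.0135), and without mutant replicate 1 its difference of 0.62 missed the threshold (limma adjusted p = 0.0659). Nrp2 also missed the threshold without mutant replicate 2, mutant replicate 3 or control replicate 2, each left out singly. Vegfa, the ligand of Kdr and Flt1, named here after its values were seen, had values of 9.61, 9.74 and 9.73 among controls, against 9.64, 9.69 and 9.72 among mutants. Its difference was -0.01 ± 0.06 (SE), with a 95% interval of -0.15 to 0.14. Nrp1, the coreceptor of VEGFR2, was at -0.16, and Pgf, the placental growth factor gene, at 0.04.

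Of 16 genes of the Wnt and Norrin pathway of the barrier, 1 of them also among the 38, none passed in limma, and 6 were higher in the mutants at an unadjusted p under 0.05, where 4.53% of all genes were. The 16 genes had 11 positive differences (68.8%, against 60.3% of all genes), and 11 without mutant replicate 1 (57.8% of all genes), with a median of 0.10 that became 0.03. Ndp, which encodes Norrin, a ligand of the receptor Fzd4, had values of 7.70, 7.95 and 8.11 among controls, against 8.50, 8.29 and 8.33 among mutants. It differed by 0.45 (limma adjusted p = 0.215), and by 0.39 without that array, with no overlap of the groups. Tspan12, a partner of Fzd4, differed by 0.29 (limma adjusted p = 0.379).

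Of 22 further junction and transport genes of the barrier, none passed in limma, and 3 had an unadjusted p under 0.05, all lower in the mutants. At that level 1.52% of all genes were lower and 4.53% higher. Mfsd2a, which carries lipids across brain vessels and keeps transcytosis low, had values of 10.74, 10.79 and 10.79 among controls, against 10.48, 10.50 and 10.34 among mutants. It differed by -0.33 (limma adjusted p = 0.126) and by -0.35 without mutant replicate 1. Slc38a5, a glutamine carrier, differed by 0.31, and by 0.16 without that array. None of 10 vascular Notch genes passed in limma, none had an unadjusted p under 0.05, and the largest differences were those of the Notch targets Hey2, at -0.16, and Hey1, at -0.14.

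Markers of other cell types moved with mutant replicate 1 as well, and their part in the values of the 38 genes was not tested. Meningeal fibroblast markers were highest there for 15 of 15 genes. Their mean was 7.56 in that array, 6.34 to 6.48 among controls, and 6.65 and 6.58 in mutant replicates 2 and 3. Dcn, a proteoglycan gene, read 10.49, 8.32 and 7.27 in the mutants and 6.58 to 6.62 in the controls, and Lum, its relative, read 6.90 in mutant replicate 1 and 4.50 to 4.78 elsewhere. Pericyte and smooth muscle markers were highest in that array for 9 of 17 genes, with a mean of 7.72 against 7.29 to 7.39 in the others. Acta2, the smooth muscle actin gene, read 8.64 there and 6.84 to 6.99 elsewhere, and Vtn, a matrix protein gene of pericytes, 10.12 and 8.29 to 8.77. In limma 0 genes of either list passed, with or without that array. With all arrays 6 of 15 meningeal genes and 1 of 17 pericyte genes had an unadjusted p under 0.05. All were higher in the mutants, as were 4.53% of all genes at that level. Without mutant replicate 1, 11 of 15 meningeal and 11 of 17 pericyte differences were positive (73.3% and 64.7%, against 57.8% of all genes). The medians of these lists were 0.15 and 0.04, against 0.01 for all genes. In that fit 4 meningeal genes and 0 pericyte genes had an unadjusted p under 0.05, where 4.68% of all genes did.

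The mean of the erythroid markers was higher in each of the 3 mutants than in any control. Of 10 erythroid markers, 6 rose in limma and none fell, led by the embryonic globin gene Hbb-bh1, which rose by 5.02 (limma adjusted p = 5.92e-05). The others were Slc4a1, Hba-x, Kel, Rhag and Epb42, and Alas2 and Hbb-y did not pass at 0.71 and 0.59. The erythroid transcription factor genes Klf1 and Gata1 did not pass either, and differed by 0.11 and 0.01. The 10 differences thus ranged from 0.01 to 5.02. The mean of the 10 markers was 7.33 to 7.45 in the controls and 8.45, 8.49 and 8.56 in mutant replicates 1, 2 and 3, and the median difference was 0.64, or 0.65 without mutant replicate 1. In that fit 5 of the 10 passed. Microglia and macrophage markers had a mean of 6.94 to 7.06 in the controls and 7.14 to 7.33 in the mutants, with the highest mean in mutant replicate 1 and 14 of 14 positive differences. Of all genes, 60.3% had a positive difference. None of the 14 passed in limma, and 5 were higher at an unadjusted p under 0.05, where 4.53% of all genes were. Fcrls differed by 0.45, and by 0.33 without mutant replicate 1. Mrc1, a marker of border macrophages, differed by 0.45, and by 0.08 without that array. In the fit without it all 14 differences stayed positive, where 57.8% of all genes were. The median of the 14 went from 0.19 to 0.13. None of 8 choroid plexus markers or of 10 neocortex markers passed in limma, and at an unadjusted p under 0.05 there were 0 and 2. Of all genes, 6.05% reached that level. Folr1 and Otx2 of the choroid plexus differed by 0.10 and 0.09, and Bcl11b and Eomes of the neocortex by 0.29 and 0.21.

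**Figure D4:**
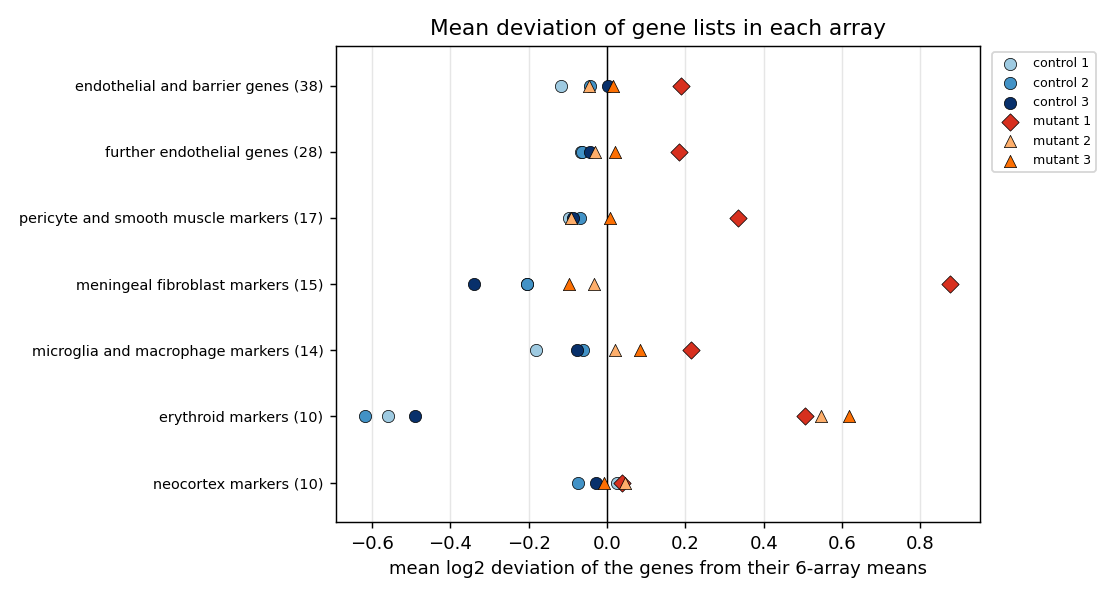
Mean log2 deviation of the genes of each list from their 6-array means, with 1 point for each array and the number of genes measured in brackets. Mutant replicate 1 lies to the right of the other arrays for endothelial, pericyte, meningeal and microglial lists, while the 3 mutants lie together for erythroid markers.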

How the data were processed

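RNA of 6 embryos was measured on 1 array each. Per the submitters' processing notes, the authors used Affymetrix Expression Console and RMA (background correction, quantile normalization, summary by probe set), and the deposited values were taken as log2, since they lay between 3.41 and 13.75. Tool versions and a genome build are not stated in the sources used here. Arrays have no read depth, and their number limits precision. Median values of the arrays lay between 7.23 and 7.33. RMA compresses differences of dim genes and hides a shift of most genes at once.

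Names of probe sets came from the platform's annotation in GEO. Of 35556, 21789 had 1 symbol, 1621 had several and 12146 had none listed here. Only those with 1 symbol were used, and for a gene with several, the one with the highest mean over the 6 arrays, which left 19938 genes. Each of the 38 measured genes had 1.

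Mutants were compared with controls by lmFit and eBayes in limma 3.58.1 (R 4.3.3) without covariates, with Benjamini-Hochberg adjustment over all genes, and tested on simulated data. The series text states separate embryos. The embryos' sex was read from Xist and Y-linked genes. By these, 2 controls were female and 1 male, and 1 mutant was female and 2 male, so sex was not balanced between the groups. Mutant replicate 1 was male and control replicate 1 female. Alternatives left out each array, used the replicate number as a block, other scalings, array weights, sex, other probe sets, a filter on dim genes and a trended, robust prior.

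The genes and all lists were chosen with earlier results of these data known. All 38 genes are named, and from each further list those that passed and the 2 with the largest other differences. Vegfa, Klf1 and Gata1 were named in addition, after their values were seen.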

Additional observations from a re-analysis of the deposited data

How the results depend on the processing

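No gene among the 38 passed under any of the 16 alternatives in which it was fitted (the filter on dim genes kept 34 of them), where the lowest limma adjusted p was 0.0533, for Angpt1 with array weights. Some alternatives could not move the differences of these genes. They were the replicate block, the trended, robust prior and the other probe sets, as each of the 38 had 1. The number of positive differences among the 38 was 22 to 37 when 1 array was left out. It was 15, with a median of -0.015, without control replicate 1 and mutant replicate 1 together. Quantile normalization and median centring both gave 36, array weights 25 and a sex term 32. A replicate block, which takes the number of each array as a pair, gave 34 genes of the whole array that passed in place of 57, and none of the 38. The numbers were not taken to pair arrays, since no pairing is stated. Deviations of same-numbered arrays correlated at 0.028, -0.142 and 0.083, and those of differently numbered arrays between -0.165 and 0.138. Leaving out 1 array gave 20 to 50 genes, array weights 217, a sex term 24 and a trended, robust prior 87. The fall of Bcl11a passed under every alternative fitted for it.

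Apart from the fit without both of those arrays, the differences of 19 of the 38 genes turned sign at least once, none of which had passed, and the cause was not tested. When 1 array was left out, the lowest and highest differences were -0.11 and 0.22 for Cdh5, -0.11 and 0.17 for Pecam1, -0.014 and 0.19 for Flt1, -0.015 and 0.17 for Tie1, -0.049 and 0.077 for Apln, -0.030 and 0.048 for Sox7, -0.020 and 0.070 for Sox17, -0.047 and 0.11 for Sox18 and -0.014 and 0.096 for Erg. They were -0.016 and 0.17 for Eng, -0.044 and 0.049 for Robo4, -0.057 and 0.084 for Ramp2, -0.11 and 0.078 for Egfl7, -0.052 and 0.019 for Nos3, -0.032 and 0.13 for Vwf, -0.028 and 0.12 for Plvap, -0.024 and 0.24 for Abcg2 and -0.035 and 0.086 for Slc7a5. Of other genes they were -0.15 and 0.17 for Pgf, -0.36 and 0.043 for Hey2, -0.013 and 0.86 for Acta2 and -0.029 and 0.19 for Otx2. With array weights, differences were -0.023 for Cldn5, -0.022 for Cdh5, -0.037 for Pecam1, -0.067 for Sox7, -0.0002 for Sox17, -0.034 for Sox18, -0.018 for Erg, -0.0021 for Robo4, -0.051 for Ramp2, -0.020 for Egfl7, -0.022 for Vwf and -0.083 for Pgf. With a sex term they were -0.016 for Pecam1, -0.027 for Sox7, -0.0024 for Ramp2, -0.0080 for Egfl7 and -0.015 for Pgf.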
